A study of Mus musculus with 48 samples.

Results

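The genes of the mitochondrial carrier family, solute carrier family 25, were followed in mouse livers after an antisense oligonucleotide against Scarb1. All 44 rows of the gene table whose symbol was Slc25a followed by a number were taken, apart from 1 such symbol that is not analysed here, of 23930 genes in all. Slc25a5, Slc25a36 and Slc25a52 are not analysed here either. The choice used names alone and no measured value. The study gave mice LX-A1656, LX-A2003 or LX-A3928, which are gapmers, short DNA strands with modified ends that direct RNase H to the RNA they pair with, or PBS as the vehicle. Livers were taken at 24 h, 72 h and 168 h, days 1, 3 and 7 of the study, and each of the 12 groups had 4 libraries, 48 in all. The labels give no genotype, strain, sex or age of the mice, no dose and no oligonucleotide sequence, and they do not say whether replicates were separate animals.

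Mitochondrial carriers are small proteins of the inner mitochondrial membrane, apart from a few members placed on other membranes. They move metabolites, nucleotides and cofactors that the membrane itself does not let through, usually in exchange for another solute. In liver they link the mitochondrion with the cytosol in urea synthesis, gluconeogenesis, fatty acid synthesis and oxidation, and in the supply of ATP. The 44 genes were grouped by what their proteins carry: 7 for citrate, dicarboxylates and phosphate, 9 for amino acids, 4 for fatty acids, choline and glutathione, 7 for ADP, ATP and ATP-Mg, 8 for nucleotides and cofactors, 2 for iron, and 7 without a settled substrate or, for Slc25a46, with a role in membrane dynamics.

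On the GRCm38 assembly, in the GENCODE M21 annotation, the 44 genes lay on 19 chromosomes, with a median span of 21.15 kb. The longest was Slc25a13, at 176.0 kb, and the shortest Slc25a2, at 1.4 kb. Family members were close neighbours at 3 places: Slc25a29 and Slc25a47 on chromosome 12 were 0.2 kb apart on opposite strands by their GENCODE starts, Slc25a41 and Slc25a23 on chromosome 17 were 2.1 kb apart, and Slc25a54 and Slc25a24 on chromosome 3 were 6.5 kb apart. Another annotated gene overlapped 13 of the 44, in each case on the opposite strand. They included Slc25a2, Slc25a10, Slc25a11, Slc25a18, Slc25a23, Slc25a25, Slc25a26, Slc25a33, Slc25a35, Slc25a37, Slc25a46 and Slc25a53. The strand used in counting is not given, so reads of such a gene and of its partner could not be told apart.

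The promoters of 4 carriers are printed because these genes had the 2 highest and the 2 lowest log2 fold changes with LX-A1656 at 168 h under the naming rule: Slc25a4 and Slc25a24 were higher than in PBS livers, and Slc25a23 and Slc25a47 were lower. Each is the 250 bases before a RefSeq start of the gene on GRCm38.p6, read 5′ to 3′ on the gene's strand. Slc25a23 had 2 such promoters, and only the first listed is printed and described here. Slc25a4 is at chr8:46211063-46211312 on the minus strand, Slc25a24 at chr3:109122899-109123148 on the plus strand, Slc25a23 at chr17:57059864-57060113 on the minus strand and Slc25a47 at chr12:108850879-108851128 on the plus strand. The RefSeq start of Slc25a47 lies 15.1 kb inside the GENCODE gene, 15.2 kb from Slc25a29, and that of Slc25a4 0.2 kb inside. Capitals mark the GC box GGGCGG and the CCAAT box on either strand, so that a match on the other strand reads CCGCCC or ATTGG.
Slc25a4: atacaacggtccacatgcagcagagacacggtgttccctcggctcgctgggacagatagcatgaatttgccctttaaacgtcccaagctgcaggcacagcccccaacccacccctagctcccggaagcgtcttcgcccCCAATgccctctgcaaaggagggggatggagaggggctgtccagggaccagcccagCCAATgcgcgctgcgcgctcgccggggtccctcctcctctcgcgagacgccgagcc
Slc25a24: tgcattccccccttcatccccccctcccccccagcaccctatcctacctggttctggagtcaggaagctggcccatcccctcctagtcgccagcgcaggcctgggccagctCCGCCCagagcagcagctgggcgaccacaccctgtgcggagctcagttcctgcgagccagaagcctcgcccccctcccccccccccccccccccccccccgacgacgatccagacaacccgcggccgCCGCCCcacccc
Slc25a23: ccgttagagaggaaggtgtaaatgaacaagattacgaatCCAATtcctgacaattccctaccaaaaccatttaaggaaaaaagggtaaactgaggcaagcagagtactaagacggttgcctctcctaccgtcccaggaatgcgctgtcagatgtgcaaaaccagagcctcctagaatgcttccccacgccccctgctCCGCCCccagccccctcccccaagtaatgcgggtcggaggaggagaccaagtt
Slc25a47: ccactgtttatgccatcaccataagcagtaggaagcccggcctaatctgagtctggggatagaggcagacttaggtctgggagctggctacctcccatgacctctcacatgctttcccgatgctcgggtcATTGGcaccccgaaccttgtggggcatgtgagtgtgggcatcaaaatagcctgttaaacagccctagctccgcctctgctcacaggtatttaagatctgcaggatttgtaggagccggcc
In these windows Slc25a4 held CCAAT boxes beginning 112 and 56 bases before the start, and Slc25a24 held GC boxes 139 and 12 bases before it. Slc25a23 held a CCAAT box 211 bases and a GC box 53 bases before the start, and Slc25a47 held a CCAAT box 120 bases before it.

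The motif search covered the 250 bases before each RefSeq start. Promoters were searched for 29 of the 39 carriers that passed the filter on low counts given below, 38 promoters in all. Chromosome 18, where Slc25a2 and Slc25a46 lie, was left out. The 32851 mouse promoters set beside them were taken whether or not their genes passed that filter. The GC box was in 29 of the 38, against 32.74% of the 32851 mouse promoters searched, and the CCAAT box was in 19 of the 38, against 33.85%. The TATA box TATAAA was in 0 of the 38, against 12.37% of all. The E-box CACGTG was in 6 of the 38 (6.02% of all), the AP-1 site TGACTCA in 1 (4.46%), the CRE TGACGTCA in 1 (1.55%) and the NRF1 site in 1 (3.74%). The HNF4 site CAAAGTCCA, the C/EBP site TTGCGCAA and the ERR site TCAAGGTCA were in 0 of the 38, and in 0.38%, 0.16% and 0.39% of all. No motif held another, both strands were searched, and a match is a description of letters only.

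Libraries held 8140065 to 17191129 read counts, with a median of 10659453, and 12672 genes passed the filter on low counts and were tested. Scarb1, the gene the oligonucleotides are directed at, was at 3.36 to 56.8 CPM (read counts relative to the TMM-scaled size of each library) in the 36 treated libraries, against 236 to 410 CPM in the 12 PBS libraries. Of the 44 carrier genes, 39 passed the filter. Those removed had few reads over all 48 libraries: 166 for Slc25a31, 119 for Slc25a43, 50 for Slc25a18, 7 for Slc25a41 and 2 for Slc25a54. Some libraries stood apart from the others of their group by the chi-square distance between their counts, above all replicate 3 of LX-A3928 at 168 h, replicate 1 of LX-A1656 at 72 h and replicate 4 of LX-A3928 at 72 h. Each kit amplicon reads 1 fragment of a gene, so levels are compared between groups and not between genes.

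At 24 h few carriers had moved. With LX-A1656, 1 of the 39 rose and 1 fell, while 2.86% of all genes tested changed, 0.986% rising and 1.88% falling. With LX-A2003, 2 rose and 0 fell, beside 2.09% of all genes, 0.939% rising and 1.15% falling. With LX-A3928, 2 rose and 0 fell, beside 3.26%, 1.68% rising and 1.58% falling. A change here means an adjusted p under 0.05 in the quasi-likelihood test of edgeR, with the Benjamini-Hochberg adjustment made over every gene tested. These counts are small and close to the background share, which itself ran from 1.86% to 2.45%, 1.05% to 1.67% and 1.93% to 2.59% for LX-A1656, LX-A2003 and LX-A3928 when 1 library was left out.

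At 72 h the livers given LX-A1656 stood out: 18 of the 39 carriers fell and 3 rose, or 53.8% called, beside 48.2% of all genes, 24.7% rising and 23.4% falling. The median log2 fold change of the 39 was -0.45, against 0.05 over all genes tested. With library totals in place of TMM factors 15 fell and 6 rose, beside 17% of all genes falling and 33.9% rising. Without replicate 1 of LX-A1656 16 fell and 2 rose. Leaving out 1 library gave 42.7% to 46.6% of all genes called. LX-A2003 gave 2 that rose and 2 that fell, beside 12% of all genes, 5.48% rising and 6.55% falling. LX-A3928 gave 2 that rose and 1 that fell, beside 9.8%, 4.47% rising and 5.33% falling.

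At 168 h carriers changed with all 3 oligonucleotides. With LX-A1656, 11 of the 39 rose and 19 fell, or 76.9% called, beside 63.9% of all genes, 34.1% rising and 29.7% falling; with libraries scaled by their totals instead of by TMM factors, 15 rose and 10 fell, beside 51% of all genes rising and 18.2% falling. With LX-A2003, 4 rose and 18 fell, or 56.4% called, beside 55.1% of all genes, 29.8% rising and 25.3% falling; with library totals, 10 rose and 8 fell, beside 46.3% rising and 13.3% falling. With LX-A3928, 3 rose and 16 fell, or 48.7% called, beside 48% of all genes, 27.3% rising and 20.7% falling; with library totals, 4 rose and 11 fell, beside 40.6% rising and 11.5% falling. The shares called in either direction with LX-A2003 and LX-A3928 were therefore near the background, and the balance between rises and falls depended on the scaling. The medians of the 39 log2 fold changes were -0.32, -0.33 and -0.39 for LX-A1656, LX-A2003 and LX-A3928, against 0.10, 0.04 and 0.08 over all genes tested. Scaling by library totals moved the median of all genes by 0.47, 0.42 and 0.30 in these comparisons, and by 0.21 for LX-A1656 at 72 h. Values written with ± below are log2 fold changes on the TMM scale with their SE, 4 libraries in each group.

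**Figure D1:**
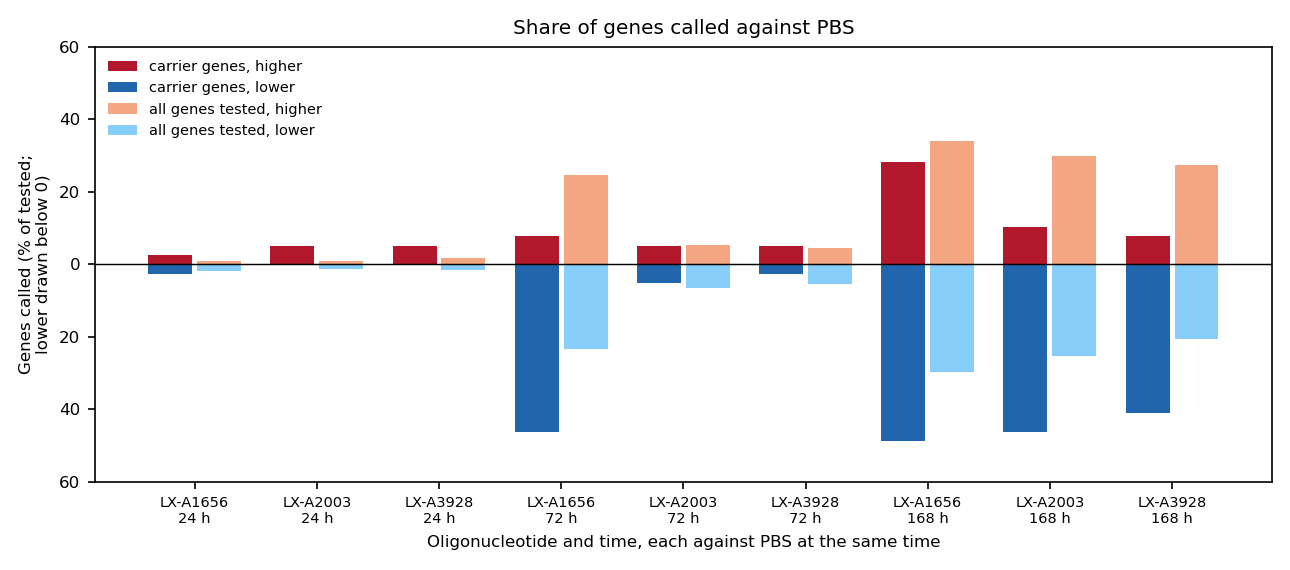
Share of the 39 tested carrier genes (dark bars) and of all 12672 genes tested (light bars) that were called higher (above the line) or lower (below the line) than PBS at the same time, in percent, for each oligonucleotide and time with TMM scaling. At 168 h, 19, 18 and 16 carriers lie below the line for LX-A1656, LX-A2003 and LX-A3928, counts that become 10, 8 and 11 with library totals.

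**Figure D2:**
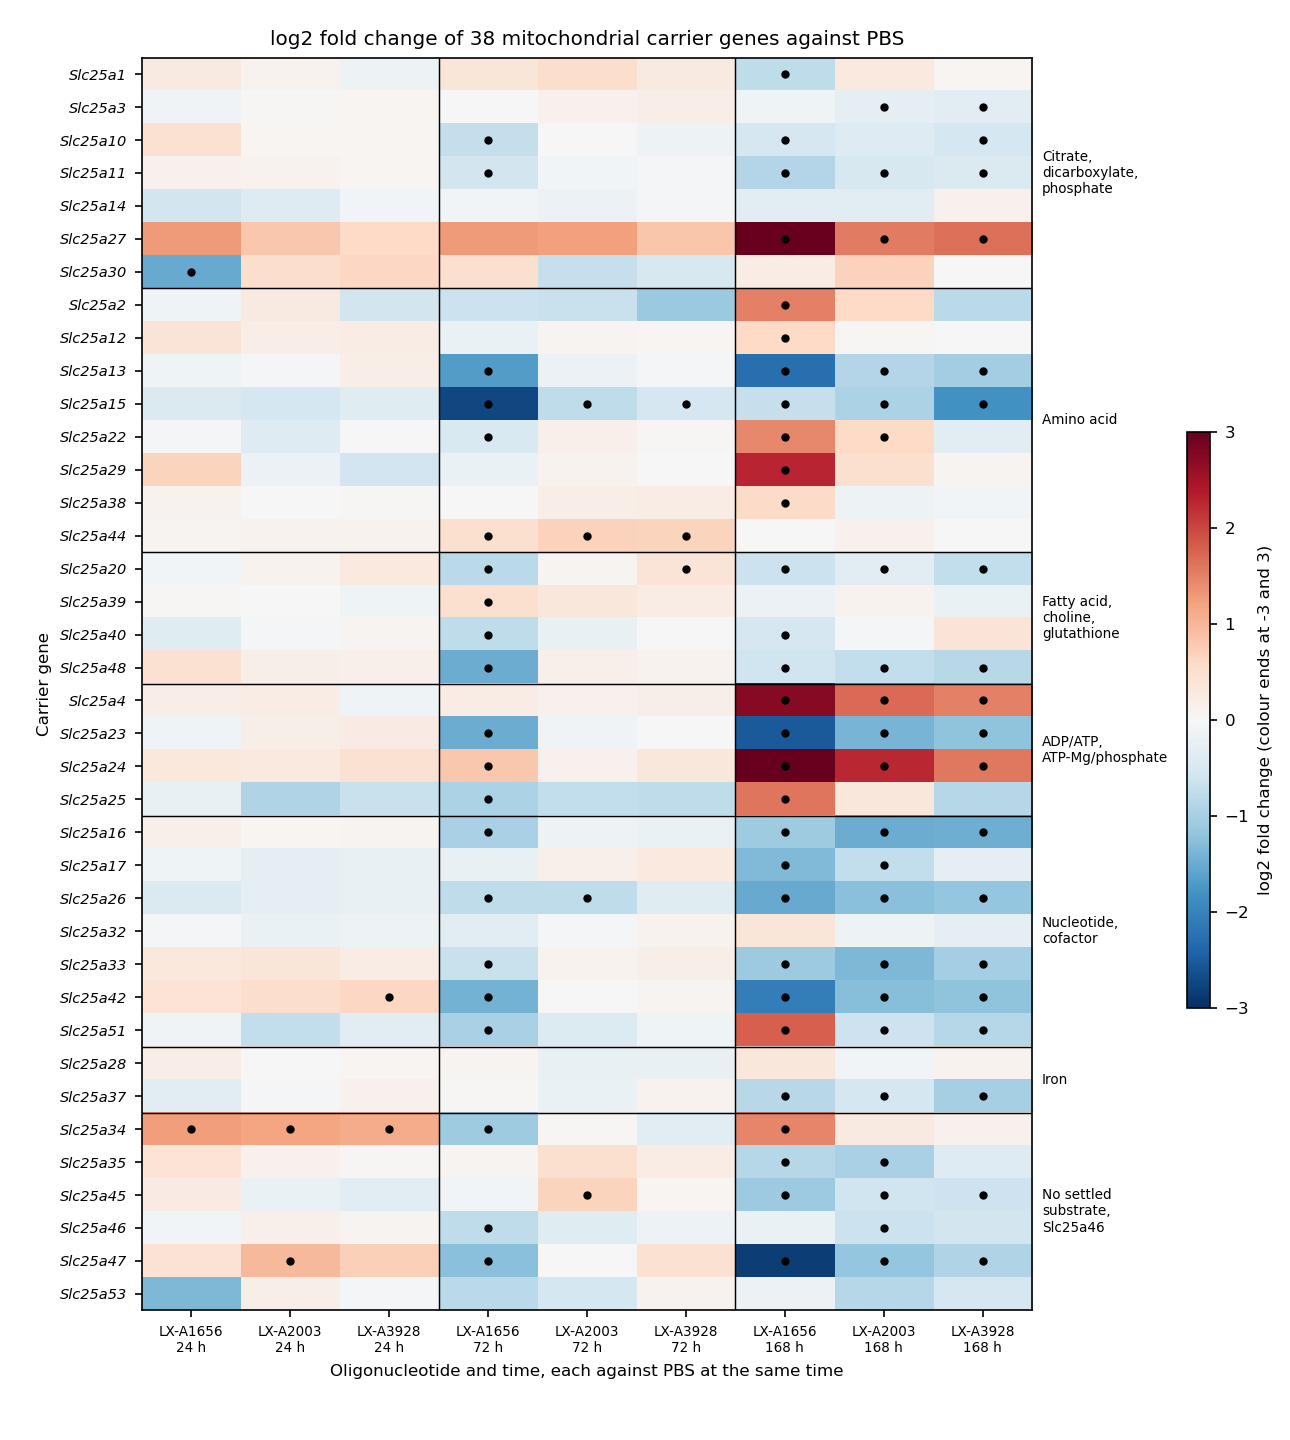
The log2 fold change against PBS at the same time (colour, red higher and blue lower, TMM scaling) of 38 tested carrier genes (rows, grouped by what they carry) for each oligonucleotide at 24, 72 and 168 h (columns), with dots on called changes. The 24 h columns hold few dots, the LX-A1656 column at 72 h holds 21, and the columns at 168 h hold 29, 22 and 19.

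Transcripts that mark liver cell types moved in the same groups. The 8 hepatocyte markers summed to a median of 38935 CPM with LX-A1656, 33337 CPM with LX-A2003 and 37807 CPM with LX-A3928 at 168 h, against 66562 CPM in PBS livers. Of these 8, 7, 6 and 5 fell in that order of oligonucleotides, and 1 rose with LX-A1656. Of all genes 29.7%, 25.3% and 20.7% fell and 34.1%, 29.8% and 27.3% rose. With library totals 4, 4 and 2 of the 8 fell and 1, 2 and 1 rose. With that scaling 18.2%, 13.3% and 11.5% of all genes fell and 51%, 46.3% and 40.6% rose. Replicate 3 of LX-A3928 had the highest sum of its group, 88255 CPM, against 29875 CPM in the lowest library of that group. The 7 tested markers of monocytes and recruited macrophages summed to a median of 1075 CPM with LX-A1656, 557 CPM with LX-A2003 and 428 CPM with LX-A3928 at 168 h, against 81.4 CPM in PBS livers, and 6, 7 and 7 of them rose. At 72 h the hepatocyte sum was 45822 CPM with LX-A1656 against 68445 CPM in PBS livers, and the monocyte and macrophage sum was 321 CPM against 67.6 CPM. The 6 Kupffer cell markers summed to 442, 528 and 420 CPM at 168 h in the same order, against 223 CPM in PBS livers. Of these 6, 4, 4 and 5 rose and 1, 0 and 0 fell. The 7 sinusoidal endothelial markers summed, in that order of oligonucleotides, to 98.8, 190 and 197 CPM at 72 h, against 332 CPM in PBS livers, and to 152, 173 and 200 CPM at 168 h, against 350 CPM in PBS livers. At 168 h 5 of these markers fell and 2 rose with each oligonucleotide, beside the shares of all genes given above. The highest log2 fold changes among them were 2.99, 1.49 and 1.32. Stellate cell and fibroblast markers summed to 1447, 987 and 907 CPM at 168 h, against 439 CPM in PBS livers, and cholangiocyte markers to 237, 153 and 115 CPM, against 89.0 CPM in PBS livers. Of the 5 cholangiocyte markers only 2 rose with each oligonucleotide at 168 h, and 1, 0 and 1 fell. With library totals 4, 2 and 2 rose and 0 fell. Their median log2 fold change with LX-A3928 was -0.29 with TMM scaling, and their sums in that group ran from 90.3 to 270 CPM. Neutrophil markers summed to 26.9, 13.1 and 14.4 CPM at 168 h, against 4.92 CPM in PBS livers. Erythroid markers summed to 26.2, 103 and 131 CPM, against 395 CPM in PBS livers. Of the 6 erythroid markers listed only 3 had a row among the genes measured and 2 were tested, of which 1, Alas2, fell with each oligonucleotide at 168 h. Skeletal muscle markers stayed under 1 CPM and adipocyte markers under 3 CPM in sum in every library. The part of these cell markers in the carrier results was not tested, and in bulk tissue fewer cells of a type and less RNA per cell cannot be told apart.

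Among the carriers of adenine nucleotides, Slc25a4 encodes the ADP/ATP exchanger known best from heart and muscle, and Slc25a23, Slc25a24 and Slc25a25 encode calcium-regulated carriers that exchange ATP-Mg for phosphate. Of the 4 tested, 3 rose and 1 fell with LX-A1656 at 168 h, and 2 rose and 1 fell with each of the others. Of all genes 34.1%, 29.8% and 27.3% rose and 29.7%, 25.3% and 20.7% fell for LX-A1656, LX-A2003 and LX-A3928. The carrier counts were the same with library totals, beside 51%, 46.3% and 40.6% of all genes rising and 18.2%, 13.3% and 11.5% falling. Slc25a4 stood at 94.7, 87.2, 84.1 and 75.9 CPM with LX-A1656, at 35.8, 39.2, 39.8 and 53.3 CPM with LX-A2003 and at 35.4, 26.8, 55.6 and 28.2 CPM with LX-A3928, against 13.3, 13.0, 12.4 and 12.6 CPM in PBS livers at 168 h. Every treated library lay above all 4 PBS libraries. The log2 fold changes were 2.73 ± 0.189 (adjusted p = 5.72e-17), 1.71 ± 0.184 (9.74e-11) and 1.50 ± 0.184 (3.95e-09) for LX-A1656, LX-A2003 and LX-A3928 by edgeR's quasi-likelihood test. At 24 h and 72 h its treated and PBS libraries overlapped with every oligonucleotide. Slc25a4 has close relatives in Slc25a5 and Slc25a31, and a split of reads among them could not be checked.

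Slc25a24 was at 17.0, 14.1, 12.7 and 9.33 CPM with LX-A1656, at 5.59, 5.39, 6.60 and 10.3 CPM with LX-A2003 and at 5.46, 3.24, 5.96 and 3.13 CPM with LX-A3928, against 0.628, 2.59, 1.08 and 1.40 CPM in PBS livers at 168 h. The groups did not overlap, although the PBS values rest on 49 reads in all. Its log2 fold changes were 3.18 ± 0.33, 2.26 ± 0.332 and 1.59 ± 0.339, with adjusted p of 1.75e-11, 1.65e-07 and 0.000127 by edgeR's quasi-likelihood test. At 72 h it was 0.81 ± 0.332 higher with LX-A1656 (adjusted p = 0.0405, edgeR), with overlapping libraries; this call was lost without replicate 2 or 3 of LX-A1656 or without replicate 1, 2 or 4 of PBS.

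Slc25a23 moved the other way. It was at 219, 256, 170 and 216 CPM with LX-A1656 at 72 h, against 621, 640, 539 and 619 CPM in PBS livers, a log2 fold change of -1.49 ± 0.159 (adjusted p = 9.03e-11, edgeR). With LX-A2003 and LX-A3928 its 72 h libraries overlapped those of PBS. At 168 h it was at 108, 94.3, 132 and 107 CPM with LX-A1656, at 222, 304, 263 and 177 CPM with LX-A2003 and at 286, 330, 169 and 304 CPM with LX-A3928, against 689, 646, 682 and 510 CPM in PBS livers. The treated libraries all lay below the PBS libraries, with log2 fold changes of -2.52 ± 0.165, -1.39 ± 0.159 and -1.21 ± 0.158 (adjusted p = 1.02e-17, 4.58e-10 and 1.61e-08, edgeR). Slc25a25, which falls outside the naming rule and was singled out after its values were seen, was at 126, 213, 183 and 225 CPM with LX-A1656 against 58.4, 41.8, 97.9 and 46.3 CPM in PBS livers at 168 h. Its libraries with LX-A1656 lay above all of PBS, and it rose by 1.61 ± 0.367 (adjusted p = 0.000195, edgeR). At 72 h the same oligonucleotide had given the opposite sign: Slc25a25 was at 30.2, 35.8, 33.6 and 24.6 CPM, below the 47.5, 64.2, 75.9 and 51.7 CPM in PBS livers, with -0.95 ± 0.366 (adjusted p = 0.0305, edgeR). That 72 h call was lost with library totals, with no filter, and without replicate 1 or 4 of LX-A1656 or replicate 2 or 3 of PBS. In LX-A3928 livers at 168 h Slc25a25 was at 26.6, 34.2, 36.6 and 37.6 CPM, below every PBS library of that time. The log2 fold change of -0.86 ± 0.366 missed the threshold (adjusted p = 0.0506, edgeR).

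**Figure D3:**
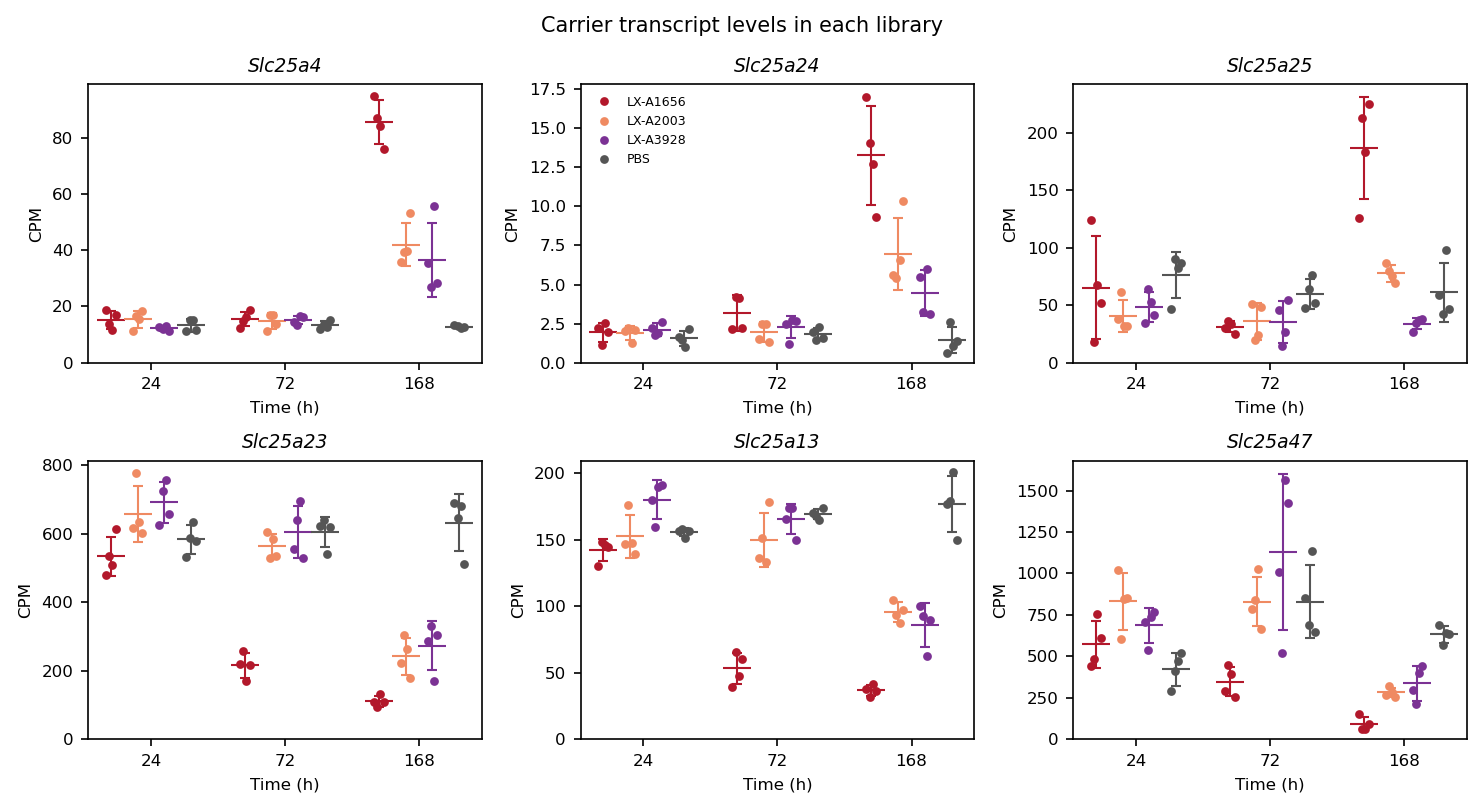
Levels in CPM (linear axes from 0) of 6 carriers in each library (points), with the group mean and SD (dash and bars, n = 4), for LX-A1656, LX-A2003, LX-A3928 and PBS at 24, 72 and 168 h. At 168 h Slc25a4 and Slc25a24 lie above PBS in every treated library, Slc25a23, Slc25a13 and Slc25a47 lie below, and Slc25a25 lies above PBS with LX-A1656 alone.

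The amino acid carriers include Slc25a13, or citrin, the aspartate-glutamate exchanger of liver, and Slc25a15, the ornithine carrier of the urea cycle. Both fell with LX-A1656 at 72 h. There 3 of the 8 tested amino acid carriers fell and 1 rose, beside 23.4% of all genes falling and 24.7% rising. Slc25a13 was at 39.3, 65.5, 47.8 and 60.0 CPM, against 170, 168, 165 and 174 CPM in PBS livers, a log2 fold change of -1.67 ± 0.134 (adjusted p = 2.09e-14, edgeR). By 168 h Slc25a13 was at 37.7, 31.6, 41.1 and 36.2 CPM with LX-A1656, at 105, 93.1, 87.3 and 97.4 CPM with LX-A2003 and at 100, 92.4, 62.2 and 89.8 CPM with LX-A3928, against 177, 179, 201 and 150 CPM in PBS livers. No treated library reached the PBS range at 168 h. The log2 fold changes were -2.27 ± 0.137, -0.89 ± 0.131 and -1.04 ± 0.132 (adjusted p = 5.66e-19, 1.93e-07 and 9.01e-09, edgeR).

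Slc25a15 fell at both 72 h and 168 h with each oligonucleotide. At 72 h it was at 56.4, 89.7, 54.4 and 95.8 CPM with LX-A1656, at 341, 262, 257 and 305 CPM with LX-A2003 and at 372, 393, 336 and 288 CPM with LX-A3928, against 452, 487, 493 and 545 CPM in PBS livers. All 3 treated groups lay below PBS, at -2.74 ± 0.184, -0.76 ± 0.173 and -0.51 ± 0.172 on the log2 scale (adjusted p = 7.07e-17, 0.00137 and 0.0499, edgeR). The LX-A3928 value is at the threshold: it was lost without replicate 1, 3 or 4 of LX-A3928 or without any 1 of the 4 PBS libraries, and with a replicate block its adjusted p also passed 0.05. At 168 h Slc25a15 was at 213, 270, 371 and 270 CPM with LX-A1656, at 295, 193, 185 and 278 CPM with LX-A2003 and at 127, 128, 125 and 135 CPM with LX-A3928, against 445, 435, 547 and 400 CPM in PBS livers. Again no treated library overlapped PBS, and the log2 fold changes were -0.70 ± 0.173, -0.94 ± 0.173 and -1.83 ± 0.177 (adjusted p = 0.000474, 1.07e-05 and 8.83e-12, edgeR). The LX-A1656 fall at 168 h was lost with library totals (adjusted p = 0.266, edgeR).

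Other amino acid carriers rose with LX-A1656 at 168 h, where 5 of 8 rose and 2 fell, beside 34.1% of all genes rising and 29.7% falling. With LX-A2003 1 rose and 2 fell, beside 29.8% of all genes rising and 25.3% falling. With LX-A3928 0 rose and 2 fell, beside 27.3% rising and 20.7% falling. With library totals the counts were 6 and 1, 3 and 2, and 0 and 2 in that order. With that scaling 51%, 46.3% and 40.6% of all genes rose and 18.2%, 13.3% and 11.5% fell. Slc25a22, a glutamate carrier, and Slc25a29, a carrier of basic amino acids, are shown by library although they fall outside the naming rule and were singled out after their values were seen. Slc25a22 was at 589, 927, 802 and 718 CPM with LX-A1656, at 523, 432, 306 and 428 CPM with LX-A2003 and at 248, 199, 137 and 323 CPM with LX-A3928, against 273, 213, 413 and 226 CPM in PBS livers. The LX-A1656 libraries alone cleared the PBS range, with 1.43 ± 0.193 (adjusted p = 1.44e-08, edgeR); LX-A2003 gave 0.59 ± 0.19 (0.00795) with overlap and LX-A3928 -0.31 ± 0.19 (0.183). At 72 h Slc25a22 had been lower with LX-A1656, at -0.45 ± 0.19 without overlap (adjusted p = 0.046, edgeR), a call that was lost in 11 of 14 alternatives, library totals and each PBS library left out among them. Slc25a29 was at 20.1, 18.1, 11.5 and 28.8 CPM with LX-A1656, against 3.77, 2.79, 5.65 and 4.06 CPM in PBS livers, a rise of 2.27 ± 0.272 (adjusted p = 8.25e-10, edgeR) without overlap. Its neighbour Slc25a47, on the opposite strand, fell in the same livers. Slc25a2, the second ornithine carrier, rose by 1.52 ± 0.397 on 91 reads with LX-A1656 against 17 in PBS livers. Slc25a12, the aspartate-glutamate exchanger known from brain and muscle, rose by 0.60 ± 0.203 and Slc25a38, a glycine carrier of haem synthesis, by 0.57 ± 0.14 with LX-A1656; the Slc25a12 call was lost without PBS replicate 1 or 3.

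Slc25a44, a carrier of branched-chain amino acids, was called with each oligonucleotide at 72 h and with none at 24 h or 168 h. It was at 142, 117, 92.4 and 106 CPM with LX-A1656, at 139, 121, 140 and 126 CPM with LX-A2003 and at 126, 131, 131 and 128 CPM with LX-A3928, against 78.2, 73.8, 90.1 and 84.9 CPM in PBS livers. The groups did not overlap, and the log2 fold changes were 0.48 ± 0.188, 0.69 ± 0.188 and 0.66 ± 0.188 (adjusted p = 0.0298, 0.00939 and 0.0161, edgeR). The LX-A1656 call was lost without replicate 1 or 2 of LX-A1656 or of PBS, and the LX-A3928 call without PBS replicate 2. The 3 rises share the same PBS livers. At 168 h its log2 fold changes lay between -0.01 and 0.13, with overlapping libraries.

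Of the 8 nucleotide and cofactor carriers, 6 fell in LX-A1656 livers at 168 h, 6 in LX-A2003 livers and 5 in LX-A3928 livers, beside 29.7%, 25.3% and 20.7% of all genes falling, and 1 rose with LX-A1656. With library totals 5, 4 and 4 fell, beside 18.2%, 13.3% and 11.5% of all genes, and 2, 0 and 0 rose. In LX-A1656 livers at 72 h 5 fell with either scaling, beside 23.4% of all genes falling, or 17% with library totals. Slc25a17 is the peroxisomal member of the family and carries coenzyme A and other cofactors. At 168 h it fell, at -1.33 ± 0.173 with LX-A1656 and -0.74 ± 0.171 with LX-A2003, and the call with LX-A2003 was lost with library totals. Slc25a42, a carrier of coenzyme A, was at 47.7, 69.3, 46.8 and 54.4 CPM with LX-A1656 at 72 h, against 145, 155, 165 and 118 CPM in PBS livers, -1.42 ± 0.155 on the log2 scale (adjusted p = 1.75e-10, edgeR). Slc25a42 at 168 h was at 43.3, 33.8, 46.1 and 35.1 CPM with LX-A1656, at 60.3, 84.0, 66.2 and 68.8 CPM with LX-A2003 and at 73.2, 72.5, 53.3 and 94.0 CPM with LX-A3928, against 145, 173, 183 and 170 CPM in PBS livers. There was no overlap, and the log2 fold changes were -2.09 ± 0.158, -1.27 ± 0.154 and -1.20 ± 0.154 (adjusted p = 1.3e-15, 2.16e-09 and 1.25e-08, edgeR). At 24 h it had been higher, at 206, 148, 162 and 150 CPM with LX-A3928 against 101, 117, 121 and 94.5 CPM in PBS livers. These libraries did not overlap, and the rise of 0.61 ± 0.152 (adjusted p = 0.0126, edgeR) was lost without replicate 1 of LX-A3928 or without replicate 1 or 4 of PBS.

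Slc25a16, a carrier linked to coenzyme A, was at 14.7, 28.5, 21.8 and 20.1 CPM with LX-A1656 at 72 h against 39.9, 44.7, 39.1 and 43.4 CPM in PBS livers. At 168 h it was at 17.3, 19.6, 18.0 and 17.5 CPM with LX-A1656, at 16.5, 10.1, 13.9 and 14.0 CPM with LX-A2003 and at 19.9, 12.8, 11.7 and 10.8 CPM with LX-A3928, against 34.4, 38.8, 35.3 and 44.2 CPM in PBS livers. Treated and PBS libraries were separate throughout, with -0.98 ± 0.162 at 72 h and -1.07 ± 0.162, -1.48 ± 0.165 and -1.46 ± 0.166 at 168 h (adjusted p = 2.18e-06, 1.84e-07, 2.46e-10 and 5.39e-10, edgeR). Slc25a26, the carrier of the methyl donor S-adenosylmethionine, was at 9.38, 9.64, 12.7 and 10.8 CPM with LX-A1656 and at 14.0, 10.0, 9.80 and 8.56 CPM with LX-A2003 at 72 h, against 19.1, 19.0, 16.0 and 17.7 CPM in PBS livers. Neither group overlapped PBS, and the log2 fold changes were -0.76 ± 0.152 and -0.77 ± 0.152 (adjusted p = 4.96e-05 and 0.000243, edgeR). At 168 h its log2 fold changes were -1.52 ± 0.154, -1.26 ± 0.153 and -1.17 ± 0.153 for LX-A1656, LX-A2003 and LX-A3928, again without overlap. Slc25a33, a pyrimidine nucleotide carrier, fell, at -1.08 ± 0.191, -1.34 ± 0.195 and -1.01 ± 0.193 in the same order.

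Slc25a51, which carries NAD into mitochondria, had opposite signs between oligonucleotides at 168 h; it falls outside the naming rule and was singled out after its values were seen. It was at 75.5, 123, 136 and 80.5 CPM with LX-A1656, at 16.8, 20.4, 19.3 and 20.4 CPM with LX-A2003 and at 14.5, 21.0, 13.6 and 16.9 CPM with LX-A3928, against 28.0, 28.7, 35.4 and 26.9 CPM in PBS livers. All LX-A1656 libraries lay above and all LX-A2003 and LX-A3928 libraries below those of PBS. The log2 fold changes were 1.80 ± 0.216, -0.63 ± 0.215 and -0.85 ± 0.217 (adjusted p = 8.21e-10, 0.0123 and 0.00116, edgeR), and with library totals the falls with LX-A2003 and LX-A3928 were lost (adjusted p = 0.446 and 0.0543, edgeR). At 72 h Slc25a51 was lower with LX-A1656, at 20.9, 21.5, 16.1 and 21.9 CPM, against 24.1, 41.8, 36.2 and 56.5 CPM in PBS livers. Those libraries did not overlap either, and the log2 fold change was -0.98 ± 0.215 (adjusted p = 0.000171, edgeR).

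**Figure D4:**
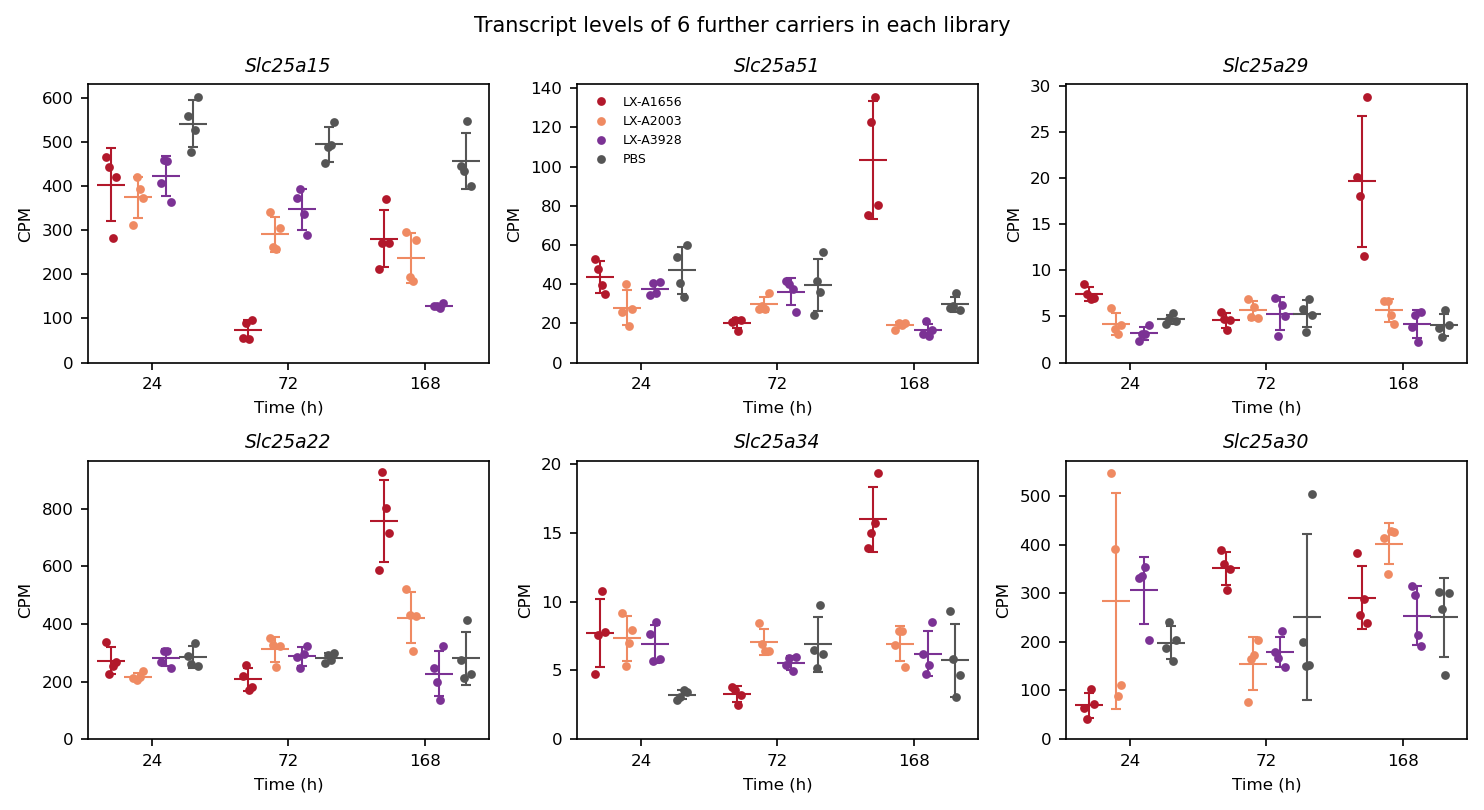
Levels in CPM (linear axes from 0) of 6 further carriers in each library (points), with the group mean and SD (dash and bars, n = 4), for LX-A1656, LX-A2003, LX-A3928 and PBS at 24, 72 and 168 h. Slc25a51, Slc25a29, Slc25a22 and Slc25a34 lie above PBS at 168 h in the LX-A1656 libraries, and Slc25a15 is lowest with LX-A1656 at 72 h and with LX-A3928 at 168 h.

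Of the carriers of fatty acids, choline and glutathione, 3 of 4 fell and 1 rose with LX-A1656 at 72 h. Of all genes 23.4% fell and 24.7% rose in that comparison. Slc25a20, the carnitine-acylcarnitine exchanger that admits long fatty acids for oxidation, was at 62.8, 82.2, 63.8 and 58.8 CPM, against 121, 104, 119 and 126 CPM in PBS livers. It did not overlap PBS and fell, at -0.82 ± 0.133 (adjusted p = 1.46e-06, edgeR). With LX-A3928 at 72 h it was at 153, 137, 167 and 161 CPM against the same PBS livers, a rise of 0.39 ± 0.131 without overlap (adjusted p = 0.0473, edgeR) that was lost with RLE factors, library totals, no filter or a replicate block, without replicate 1, 3 or 4 of LX-A3928, and without any 1 PBS library. Slc25a20 at 168 h was at 93.2, 72.8, 79.8 and 81.4 CPM with LX-A1656, at 106, 114, 99.2 and 92.0 CPM with LX-A2003 and at 96.7, 66.0, 62.0 and 80.9 CPM with LX-A3928, against 121, 135, 154 and 103 CPM in PBS livers. The log2 fold changes were -0.65 ± 0.132, -0.32 ± 0.131 and -0.75 ± 0.132 (adjusted p = 3.73e-05, 0.036 and 7.87e-06, edgeR), with overlap for LX-A2003. With library totals the LX-A1656 fall was lost and the LX-A2003 value turned to 0.0937 (adjusted p = 0.588), while the median of all genes stood at 0.45. The LX-A2003 call was also lost with RLE factors, with no filter, and without replicate 3 or 4 of LX-A2003 or replicate 2 or 3 of PBS.

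Slc25a39, which carries glutathione, was at 1270, 931, 846 and 834 CPM with LX-A1656 at 72 h against 797, 686, 695 and 600 CPM in PBS livers. The groups did not overlap, and the rise of 0.48 ± 0.179 (adjusted p = 0.023, edgeR) was lost without replicate 1 of LX-A1656 or replicate 4 of PBS. Its relative Slc25a40 had a log2 fold change of -0.76 ± 0.221 in the same comparison (adjusted p = 0.00371, edgeR). Slc25a48, a choline carrier, was at 11.0, 20.1, 13.6 and 15.9 CPM with LX-A1656 at 72 h against 50.8, 42.6, 42.5 and 33.9 CPM in PBS livers; it falls outside the naming rule and was singled out after its values were seen. It fell, at -1.49 ± 0.157 (adjusted p = 6.83e-11, edgeR), without overlap. At 168 h its log2 fold changes were -0.61 ± 0.152, -0.75 ± 0.153 and -0.82 ± 0.154, and with library totals those of LX-A1656 and LX-A2003 were lost.

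Among carriers of citrate, dicarboxylates and phosphate, 2 of 7 fell with LX-A1656 at 72 h, near the share of all genes that fell, 23.4%. They were Slc25a10, the dicarboxylate carrier, at -0.71 ± 0.213 and Slc25a11, the oxoglutarate-malate exchanger, at -0.56 ± 0.134. At 168 h Slc25a11 fell, at -0.87 ± 0.135, -0.49 ± 0.134 and -0.44 ± 0.134 for LX-A1656, LX-A2003 and LX-A3928, and with library totals the falls with LX-A2003 and LX-A3928 were lost. Slc25a1, the citrate exporter that supplies fatty acid synthesis, fell, at -0.76 ± 0.203 with LX-A1656 at 168 h, a call lost with library totals. Slc25a3, the phosphate carrier, gave -0.28 ± 0.121 with LX-A2003 and -0.31 ± 0.121 with LX-A3928, and Slc25a10 gave -0.51 ± 0.212 with LX-A1656 and -0.53 ± 0.213 with LX-A3928; the libraries overlapped, and all 4 calls were lost with library totals, where the Slc25a3 values turned to 0.13 and 0.024. The Slc25a3 calls were also lost without replicate 1, 3 or 4 of LX-A2003, replicate 1 or 3 of LX-A3928 or replicate 1 or 3 of PBS, and the Slc25a10 calls without replicate 1, 2 or 3 of LX-A1656, replicate 1 or 3 of LX-A3928 or replicate 1 or 3 of PBS. Slc25a27, related to the uncoupling proteins, rose by 3.09 ± 0.59 with LX-A1656 on 210 reads against 13 in PBS livers at 168 h. Its calls with LX-A2003 (1.56 ± 0.638) and LX-A3928 (1.65 ± 0.64) were lost without LX-A2003 replicate 4 or LX-A3928 replicate 1, and without PBS replicate 1 or 3.

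Slc25a30, another relative of the uncoupling proteins, varied widely between libraries of a group. At 24 h it was at 64.8, 40.4, 102 and 71.3 CPM with LX-A1656, at 546, 391, 89.4 and 111 CPM with LX-A2003 and at 331, 335, 354 and 204 CPM with LX-A3928, against 188, 241, 161 and 203 CPM in PBS livers. The LX-A1656 libraries alone were separate from PBS, all below it. That change of -1.51 ± 0.386 (adjusted p = 0.0185, edgeR) was lost with no filter and without replicate 1, 2 or 4 of LX-A1656 or replicate 2 of PBS.

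Carriers without a settled substrate were led by Slc25a47, a gene expressed almost only in liver. At 24 h Slc25a47 was at 1021, 602, 848 and 852 CPM with LX-A2003 against 288, 409, 469 and 521 CPM in PBS livers, separate groups with a rise of 0.98 ± 0.267 (adjusted p = 0.0379, edgeR). PBS livers at 72 h stood above those at 24 h by as much, 0.98 ± 0.267 without overlap, a difference that missed the threshold (adjusted p = 0.197, edgeR). The LX-A2003 call at 24 h was lost with no filter, without replicate 1, 3 or 4 of LX-A2003, and without replicate 1, 2 or 3 of PBS. At 72 h it was at 291, 448, 395 and 256 CPM with LX-A1656, against 850, 687, 1137 and 648 CPM in PBS livers. This was a change of -1.26 ± 0.269 without overlap (adjusted p = 0.000127, edgeR). Slc25a47 at 168 h was at 149, 58.4, 58.2 and 91.7 CPM with LX-A1656, at 268, 319, 287 and 251 CPM with LX-A2003 and at 296, 209, 398 and 441 CPM with LX-A3928, against 688, 566, 640 and 634 CPM in PBS livers. The treated groups lay wholly below PBS, with -2.82 ± 0.284, -1.17 ± 0.268 and -0.91 ± 0.267 (adjusted p = 8.95e-12, 0.000275 and 0.00427, edgeR).

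Slc25a34 was called with each oligonucleotide at 24 h. It falls outside the naming rule, with under 10 CPM at that time, and was singled out after its values were seen. It was at 4.76, 7.57, 10.7 and 7.79 CPM with LX-A1656, at 9.16, 5.29, 6.96 and 7.93 CPM with LX-A2003 and at 7.67, 5.67, 8.51 and 5.83 CPM with LX-A3928, against 2.87, 3.05, 3.56 and 3.44 CPM in PBS livers. No groups overlapped PBS, and the rises were 1.26 ± 0.255, 1.18 ± 0.253 and 1.10 ± 0.252 (adjusted p = 0.00157, 0.00424 and 0.00596, edgeR); all 3 are set against the same PBS livers. PBS livers at 72 h lay above those at 24 h in every library, by 1.09 ± 0.256, which missed the threshold (adjusted p = 0.0743, edgeR). At 72 h it fell, at -1.08 ± 0.25 with LX-A1656, and at 168 h it rose by 1.48 ± 0.237 with LX-A1656 alone, at 13.9, 15.0, 15.7 and 19.4 CPM against 9.30, 5.80, 3.10 and 4.70 CPM in PBS livers. Those 168 h groups were separate as well (adjusted p = 6.16e-07, edgeR).

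Slc25a45 was at 66.8, 59.2, 47.1 and 65.0 CPM with LX-A2003 at 72 h, against 33.5, 45.6, 35.5 and 35.2 CPM in PBS livers, a rise of 0.67 ± 0.183 without overlap (adjusted p = 0.00929, edgeR). At 168 h it was at 19.1, 20.9, 15.3 and 17.3 CPM with LX-A1656, at 29.8, 26.9, 22.7 and 22.7 CPM with LX-A2003 and at 22.1, 30.6, 15.2 and 32.4 CPM with LX-A3928, against 40.6, 33.0, 43.7 and 37.3 CPM in PBS livers. All treated libraries lay below PBS, at -1.09 ± 0.186, -0.60 ± 0.184 and -0.62 ± 0.185, and the LX-A2003 and LX-A3928 falls were lost with library totals. Slc25a35 fell, at -0.86 ± 0.304 with LX-A1656 and -0.98 ± 0.311 with LX-A2003 at 168 h, with overlapping libraries, and both calls were lost with library totals, that of LX-A1656 also without PBS replicate 1. Slc25a46 fell, at -0.76 ± 0.245 with LX-A1656 at 72 h and, at -0.65 ± 0.246, with LX-A2003 at 168 h. Both calls were lost with library totals, that at 168 h also without replicate 1, 2 or 3 of LX-A2003 or replicate 2 or 4 of PBS.

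Of the 2 iron carriers, Slc25a37, or mitoferrin-1, which serves haem synthesis in red cell precursors, fell, at -0.84 ± 0.186, -0.52 ± 0.185 and -1.01 ± 0.187 for LX-A1656, LX-A2003 and LX-A3928 at 168 h. With library totals the falls with LX-A1656 and LX-A2003 were lost, and that with LX-A2003 also without its replicate 4 or PBS replicate 3. Alas2, the haem synthesis enzyme of red cell precursors, fell, at -3.81 ± 0.174, -1.97 ± 0.161 and -1.45 ± 0.158 in the same livers. It is part of the erythroid sum above and no separate marker, and the part of erythroid cells in the Slc25a37 result was not tested. Slc25a28, the mitoferrin of other tissues, was called in none of the 9 comparisons with PBS, nor were Slc25a14, Slc25a32 and Slc25a53. Their log2 fold changes ran from -0.21 to 0.33 for Slc25a28, from -0.55 to 0.14 for Slc25a14, from -0.35 to 0.37 for Slc25a32 and from -1.35 to 0.16 for the sparsely counted Slc25a53.

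The oligonucleotides were next set against each other at the same time, a comparison between agents whose doses are not given. At 24 h LX-A2003 over LX-A1656 called 1 of the 39 carriers as higher and 0 as lower, beside 0.284% of all genes, 0.166% higher and 0.118% lower. It was Slc25a30, with 2.03 ± 0.391 and overlapping libraries. LX-A3928 over LX-A1656 called 2, beside 2.9%, 1.5% higher and 1.4% lower: Slc25a30 at 2.13 ± 0.393 and Slc25a29 at -1.23 ± 0.277. LX-A3928 over LX-A2003 called 0, beside 0.15%, 0.0631% higher and 0.0868% lower. At 72 h LX-A2003 over LX-A1656 gave 15 higher and 1 lower, beside 35.9% of all genes, 18% higher and 18% lower. With library totals this pair gave 11 higher and 3 lower, beside 11.2% of all genes higher and 28.8% lower. LX-A3928 over LX-A1656 gave 18 higher and 1 lower with TMM factors, beside 40.6%, 20.4% higher and 20.1% lower. With library totals this pair gave 10 higher and 3 lower, beside 11.8% of all genes higher and 33.6% lower. LX-A3928 over LX-A2003 gave 0 at 72 h, beside 0.718%, 0.292% higher and 0.426% lower; leaving out replicate 4 of LX-A3928 gave 1. The highest at 72 h was Slc25a15, at 1.97 ± 0.179 for LX-A2003 and 2.23 ± 0.18 for LX-A3928 over LX-A1656, without overlap, and the 1 lower was Slc25a30 in both.

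At 168 h LX-A2003 over LX-A1656 gave 9 higher and 11 lower, beside 32.1% of all genes, 18.3% higher and 13.8% lower. With library totals this pair gave 6 higher and 12 lower, beside 15.4% of all genes higher and 15.1% lower. LX-A3928 over LX-A1656 gave 9 higher and 13 lower, beside 41.7%, 23.2% higher and 18.5% lower. Slc25a51 was the lowest in both, at -2.43 ± 0.22 for LX-A2003 and -2.65 ± 0.222 for LX-A3928 (adjusted p = 6.37e-12 and 2.82e-13, edgeR). Slc25a29 was at -1.79 ± 0.257 and -2.20 ± 0.264, Slc25a25 at -1.27 ± 0.361 and -2.47 ± 0.378, and Slc25a4 was lower, at -1.02 ± 0.174 and -1.23 ± 0.176. Slc25a47 was higher by 1.65 ± 0.272 and 1.91 ± 0.275, Slc25a13 by 1.38 ± 0.133 and 1.23 ± 0.133, and Slc25a23 by 1.13 ± 0.158 and 1.30 ± 0.159. In each of these pairs the libraries of the 2 oligonucleotides were separate. LX-A3928 over LX-A2003 gave 0 higher and 5 lower, beside 8.1% of all genes, 5.33% higher and 2.77% lower, a background that was 1.8% without replicate 3 of LX-A3928 and 14.1% without its replicate 4: Slc25a2 at -1.41 ± 0.434, Slc25a25 at -1.20 ± 0.366, Slc25a22 at -0.89 ± 0.191, Slc25a15 at -0.88 ± 0.174 and Slc25a20 at -0.43 ± 0.132. That count was 2 without replicate 3 of LX-A3928.

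The change against PBS was also compared between 168 h and 24 h as an interaction. With LX-A1656 the change was higher at 168 h for 8 carriers and lower for 16, beside 47% of all genes that differed, 23.2% higher and 23.8% lower, and with library totals for 12 and 11. With LX-A2003 it was higher for 4 and lower for 11, beside 38.5%, 20% higher and 18.5% lower, and with library totals for 6 and 5. With LX-A3928 it was higher for 1 and lower for 13, beside 32.4%, 17.4% higher and 15% lower, and with library totals for 3 and 11. The shares of all genes with library totals were 38.9%, 34.8% and 28.5% higher for LX-A1656, LX-A2003 and LX-A3928. Those lower with that scaling were 13.2%, 8.92% and 7.83%. The largest differences among the carriers were Slc25a47 at -3.26 ± 0.384 with LX-A1656, Slc25a47 at -2.15 ± 0.378 with LX-A2003 and Slc25a42 at -1.81 ± 0.216 with LX-A3928. Slc25a4 gave 2.54 ± 0.261, 1.50 ± 0.259 and 1.63 ± 0.26 in that order. In PBS livers 0 of the 39 differed between 72 h and 24 h, beside 0.0789% of all genes, 0.0473% higher and 0.0316% lower, and 1 between 168 h and 24 h, beside 1.03%, 0.355% higher and 0.679% lower: Slc25a42 was higher by 0.63 ± 0.152 (adjusted p = 0.0286, edgeR), a call lost with library totals, with no filter, and without replicate 1, 2 or 4 of PBS at 24 h or replicate 2 or 4 at 168 h.

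Related genes were read from lists drawn up with earlier results of these data known. Of 18 tested genes of mitochondrial content and the respiratory chain, 11 fell and 1 rose with LX-A1656 at 72 h, beside 23.4% of all genes falling. With library totals 6 fell and 2 rose, beside 17% of all genes falling and 33.9% rising. At 168 h 15, 15 and 10 fell and 1, 0 and 0 rose for LX-A1656, LX-A2003 and LX-A3928, beside 29.7%, 25.3% and 20.7% of all genes falling, with medians of -1.01, -0.81 and -0.55. With library totals 13, 10 and 7 fell and 2, 3 and 3 rose, with medians of -0.54, -0.39 and -0.24. Cox4i1, a subunit of cytochrome c oxidase, fell, at -1.10 ± 0.177, -0.81 ± 0.176 and -0.88 ± 0.177, and Atp5b, a subunit of ATP synthase, at -0.73 ± 0.123, -0.55 ± 0.123 and -0.60 ± 0.123. The Atp5b call with LX-A2003 was lost with library totals, and that with LX-A3928 when only the groups compared were fitted. Of 11 tested transporters of the inner membrane from other families, 7 fell with each oligonucleotide at 168 h and 2, 1 and 1 rose, against 5, 7 and 6 that fell and 3, 2 and 2 that rose with library totals. Mpc2, of the pyruvate carrier, fell, at -1.25 ± 0.112, -1.24 ± 0.112 and -1.01 ± 0.112. Of 9 tested genes of carrier import, 3, 5 and 3 fell and 0 rose, and with library totals 2 fell with each and 3, 1 and 2 rose. Both lists stand beside 29.7%, 25.3% and 20.7% of all genes falling and 34.1%, 29.8% and 27.3% rising. With library totals 18.2%, 13.3% and 11.5% of all genes fell and 51%, 46.3% and 40.6% rose. Of the 3 tested relatives under other symbols, 1 rose with each oligonucleotide at 168 h and 2, 1 and 1 fell. Their median log2 fold changes were -0.46, -0.24 and -0.31. With library totals 1 rose with each and 0, 1 and 0 fell. The shares of all genes just given stand beside these counts too. The 1 that rose was Ucp2, an uncoupling protein much expressed in macrophages, by 2.92 ± 0.209, 2.47 ± 0.205 and 1.54 ± 0.199. The macrophage markers above rose in the same livers, and the part of macrophages in the Ucp2 result was not tested.

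Of 18 tested enzymes that act beside the carriers, 4, 6 and 5 rose and 7, 7 and 8 fell at 168 h, beside 34.1%, 29.8% and 27.3% of all genes rising and 29.7%, 25.3% and 20.7% falling. With library totals 10, 7 and 6 rose and 5, 4 and 6 fell, beside 51%, 46.3% and 40.6% of all genes rising and 18.2%, 13.3% and 11.5% falling. Otc, the urea cycle enzyme that uses the ornithine brought in by Slc25a15, fell, at -3.17 ± 0.317 with LX-A1656 and -1.98 ± 0.302 with LX-A2003, and gave -0.42 ± 0.292 with LX-A3928 (adjusted p = 0.24, edgeR). Arg1, which makes that ornithine, gave 0.19 ± 0.288 with LX-A1656 (adjusted p = 0.576, edgeR) and fell, at -2.01 ± 0.299 with LX-A2003 and -1.96 ± 0.299 with LX-A3928; with LX-A1656 at 72 h it fell, at -3.02 ± 0.312. Got1, the cytosolic aspartate aminotransferase of the malate-aspartate shuttle, rose by 3.12 ± 0.301 with LX-A1656, gave -0.07 ± 0.28 with LX-A2003 (adjusted p = 0.857, edgeR) and fell, at -1.16 ± 0.286 with LX-A3928. Cpt1a, which commits fatty acids to oxidation, rose by 1.26 ± 0.141, 1.34 ± 0.141 and 1.30 ± 0.141, while Cpt2, its partner in the inner membrane, fell, at -1.36 ± 0.15, -0.70 ± 0.148 and -0.83 ± 0.149, of which the LX-A2003 call was lost with library totals. Acly and Fasn, which turn exported citrate into fatty acid, rose with LX-A2003 by 1.33 ± 0.239 and 2.10 ± 0.349 and with LX-A3928 by 0.88 ± 0.238 and 1.17 ± 0.34, and gave 0.45 ± 0.237 and 0.69 ± 0.338 with LX-A1656 (adjusted p = 0.0927 and 0.0734, edgeR). With library totals Arg1, Acly and Fasn were called higher with LX-A1656. The LX-A3928 rises of Acly and Fasn were lost when only the groups compared were fitted, and that of Acly also without replicate 2 of LX-A3928.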

How the data were processed

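Gene expression was measured in 48 mouse liver libraries made with the Ion AmpliSeq mouse transcriptome kit, which amplifies a designed fragment of each gene. The values are whole-number read counts per gene, deposited by the authors as raw counts; the aligner, counting tool, genome build and strand were not given in the sources used here. Samples were grouped by treatment and time from the labels. Separate animals are not named for the replicates, and the spread behind the p-values may therefore be technical.

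Genes were filtered with filterByExpr over the 12 groups, leaving 12672 of 23930 genes, with 99.891% or more of each library's counts. After TMM scaling 1 model with 12 group means and 36 residual degrees of freedom was fitted with edgeR 4.0.16 (R 4.3.3, robust quasi-likelihood F test). Benjamini-Hochberg adjustment covered the tested genes of each of the 23 comparisons, with a threshold of 0.05. The common biological coefficient of variation was 0.2114. Levels are CPM with TMM scaling, and a count of 0 is given as 0 CPM. The fitting was tested on simulated data.

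The members and lists were chosen with earlier results of these data known. Values by library are given for members that, in any comparison with PBS, were among the 2 highest and 2 lowest called, and averaged 10 CPM or more in 1 group, with no overlap of libraries; members singled out besides are named as such. Sequences are from RefSeq, GRCm38.p6, and positions from GENCODE M21, GRCm38; genes were matched by symbol. The values of 1 further carrier, counted in the totals, are not reported here.

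Alternatives were RLE factors, library totals alone, no filter on low counts, a replicate block, only the groups compared, DESeq2 1.42.0, and leaving out each library. Same-numbered replicates of the groups compared had correlations of their deviations from the group means between -0.658 and 0.435, and in none of the comparisons were all 4 over 0.1, so the numbers were not taken to pair the samples.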

Additional observations from a re-analysis of the deposited data

Results flagged for a closer look

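In 8 of the 168 groups of 4 libraries examined, 1 library of a carrier under the naming rule lay far from the other 3 by Dixon's test, where chance gives about 1 in 20 groups. Slc25a30 gave 3 of them: 204 CPM in replicate 4 of LX-A3928 at 24 h, below the others, 339 CPM in replicate 2 of LX-A2003 at 168 h, below the others, and 504 CPM in replicate 4 of PBS at 72 h, above the others. The low ones among the rest were Slc25a24 at 1.22 CPM in replicate 2 of LX-A3928 at 72 h, Slc25a39 at 645 CPM in replicate 4 of LX-A1656 at 24 h and Slc25a42 at 142 CPM in replicate 2 of LX-A2003 at 24 h. The high ones were Slc25a44 at 121 CPM in replicate 4 of LX-A1656 at 168 h and Slc25a45 at 45.6 CPM in replicate 2 of PBS at 72 h.

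For 28 of 42 tests on these 14 carriers, the log2 fold change against PBS differed between 168 h and 24 h in edgeR's interaction test. The naming rule had picked them for their extreme changes against PBS in the same libraries. A high share was therefore likely from the choice alone, and the count cannot set them apart from other genes. Of all genes tested, 47% differed for LX-A1656, 38.5% for LX-A2003 and 32.4% for LX-A3928. With LX-A1656 the difference was 2.54 for Slc25a4, 2.86 for Slc25a24 and 1.72 for Slc25a30. In the same livers it was -2.14 for Slc25a13, -1.23 for Slc25a16, -0.56 for Slc25a20, -2.39 for Slc25a23, -1.08 for Slc25a26, -2.50 for Slc25a42, -1.33 for Slc25a45 and -3.26 for Slc25a47. With LX-A2003 it was 1.50 for Slc25a4, 1.97 for Slc25a24, -0.86 for Slc25a13, -1.53 for Slc25a16, -1.56 for Slc25a23, -0.99 for Slc25a26, -1.79 for Slc25a42 and -2.15 for Slc25a47. With LX-A3928 it was 1.63 for Slc25a4, -1.25 for Slc25a13, -1.47 for Slc25a15, -1.55 for Slc25a16, -1.03 for Slc25a20, -1.46 for Slc25a23, -0.95 for Slc25a26, -1.81 for Slc25a42 and -1.61 for Slc25a47.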

How the results depend on the processing

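Of the 23 counts of called carriers, library totals moved 1 by over 1.5 times, no filter 5, a replicate block 1, only the groups compared 7, DESeq2 2 and RLE factors 0, and leaving out 1 library moved 33 of 208. Library totals ended the calls named above as lost, turned the Slc25a20 value for LX-A2003 at 168 h to 0.0937 and left 0 calls between 168 h and 24 h in PBS livers. Over all genes, library totals gave 4294 higher and 2153 lower for LX-A1656 at 72 h, against 3134 and 2968 with TMM factors. At 168 h they gave 6469 and 2303 for LX-A1656, 5865 and 1685 for LX-A2003 and 5144 and 1458 for LX-A3928, against 4326 and 3766, 3775 and 3212, and 3464 and 2623. For the carriers under the naming rule, 695 of 756 alternative values kept their direction and side of the threshold, 60 missed the threshold and 1 reversed; the cause was not tested. Amplicon counts of rare carriers, such as Slc25a2, Slc25a27 and Slc25a53, limit what could be detected.

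With no filter, the called carriers became 1 for LX-A1656, 1 for LX-A2003 at 24 h, 1 for LX-A3928 at 72 h, 2 for LX-A3928 over LX-A2003 at 168 h and 0 for PBS at 168 h over 24 h. With a replicate block, LX-A3928 at 72 h gave 1 in place of 3, and every other count of called carriers stayed within 1.5 times; the numbers do not pair the samples. Fitting only the groups compared gave 4, 5 and 5 for LX-A1656, LX-A2003 and LX-A3928 at 24 h, 7 for LX-A2003 at 72 h, 0 for LX-A2003 over LX-A1656 and 8 for LX-A3928 over LX-A1656 at 24 h, and 1 for LX-A3928 over LX-A2003 at 168 h. That fit also ended calls at 168 h of Slc25a40 with LX-A1656, of Slc25a3, Slc25a11, Slc25a20, Slc25a37 and Slc25a46 with LX-A2003, and of Slc25a3, Slc25a10, Slc25a11 and Slc25a45 with LX-A3928. DESeq2 gave 5 for LX-A2003 at 24 h and 1 for PBS at 72 h over 24 h, where edgeR called 0.

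Leaving out 1 library gave 1 to 2 called carriers for LX-A1656, 1 to 3 for LX-A2003 and 1 to 2 for LX-A3928 at 24 h, 0 to 1 for LX-A2003 over LX-A1656 at 24 h, 0 to 3 for LX-A3928 and 0 to 1 for LX-A3928 over LX-A2003 at 72 h, 2 to 7 for LX-A3928 over LX-A2003 at 168 h, and 0 to 1 for PBS at 168 h over 24 h. The larger counts kept within 1.5 times: 17 to 20 for LX-A1656 at 72 h, and 27 to 29, 18 to 21 and 16 to 21 for LX-A1656, LX-A2003 and LX-A3928 at 168 h.

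Counts over all genes that moved by over 1.5 times under the other settings were as follows. With no filter they were 22 (36 with the design reported) and 229 (368) for LX-A2003 and LX-A3928 over LX-A1656 at 24 h, and 73 (131) for PBS at 168 h over 24 h. With only the groups compared they were 803 (363), 754 (265) and 1435 (413) for LX-A1656, LX-A2003 and LX-A3928 at 24 h, 2509 (1524) for LX-A2003 at 72 h and 3208 (6087) for LX-A3928 at 168 h. Between oligonucleotides that fit gave 154 (36), 1455 (368) and 77 (19) at 24 h for LX-A2003 over LX-A1656, LX-A3928 over LX-A1656 and LX-A3928 over LX-A2003, and 2870 (5278) and 29 (1026) at 168 h for LX-A3928 over LX-A1656 and over LX-A2003. DESeq2 gave 410 (265) for LX-A2003 at 24 h, 84 (36) for LX-A2003 over LX-A1656 at 24 h, 137 (91) for LX-A3928 over LX-A2003 at 72 h, and 36 (10) and 296 (131) for PBS at 72 h and 168 h over 24 h. Leaving out 1 library gave 239 to 314 (363), 135 to 214 (265) and 248 to 332 (413) for LX-A1656, LX-A2003 and LX-A3928 at 24 h. Between oligonucleotides it gave 11 to 39 (36), 159 to 462 (368) and 6 to 24 (19) at 24 h in the order above, and for LX-A3928 over LX-A2003 49 to 133 (91) at 72 h and 230 to 1807 (1026) at 168 h. In PBS livers it gave 2 to 33 (10) and 47 to 129 (131) for 72 h and 168 h over 24 h. The remaining counts over all genes stayed within 1.5 times when 1 library was left out.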
